A study of Mus musculus with 2 samples.

Results

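Disallowed genes are housekeeping-type genes that most tissues express and that the beta cells of the pancreatic islet, which make insulin, are known to keep low. The best known of them, lactate dehydrogenase A and the monocarboxylate transporter, belong to pyruvate and lactate metabolism. Described here are 9 further genes of this kind that lie outside that pathway, taken by symbol from the 55487 genes of the deposited tables. They are the enzyme genes Acot7 and Oat, the signalling genes Cxcl12, Pdgfra, Igfbp4 and Dapp1, and the regulators Lmo4, Ndrg2 and Mylk. Each symbol matched 1 row in both libraries.

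RNA was sequenced from sorted islet cells of mice 2 months old, labelled as mutant beta cells, in 2 libraries of 1 group. The genotype was given as MytF/F; Myt2F/F; Myt3F/F; RipCre, that is, floxed alleles of the genes for the Myt zinc-finger transcription factors and a Cre recombinase driven by the rat insulin promoter. Males and females were pooled. Nothing in the labels says whether library 2, called a duplicate, came from other mice, so p-values speak only of read sampling and of a spread that may be technical. No control cells were analysed here, and none of the values below compares mutant with control cells.

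Disallowed genes are known for their silence in healthy beta cells, where repressive chromatin, DNA methylation and microRNAs hold them down, and for their reappearance in immature or stressed beta cells. The present members have varied roles. Acot7 encodes a cytosolic enzyme that splits long-chain acyl-CoA, and Oat encodes the mitochondrial aminotransferase that links ornithine to glutamate and proline. Cxcl12 is a chemokine, Pdgfra a receptor for platelet-derived growth factors, Igfbp4 a secreted protein that binds insulin-like growth factors, and Dapp1 an adaptor that binds the lipid products of phosphoinositide 3-kinase. Lmo4 is a LIM-only cofactor of transcription, Ndrg2 a member of a family named after its repression by N-myc, and Mylk the kinase that phosphorylates the regulatory light chain of myosin.

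The members shared no common promoter type. RefSeq promoter windows of 300 bases, from 250 bases before to 50 bases after a transcript start (GRCm38.p6), were matched for all 9 genes, with 13 windows in all because Lmo4 and Ndrg2 have 3 starts each. Their base composition ran from CpG-poor to CpG-rich. The window of Mylk held 4 CpG dinucleotides at a GC content of 53.3%, close to the median of 32851 windows, which was 52.7% GC with 7 CpG. The window at the outermost start of Lmo4 held 52 CpG at 81.3% GC, a CpG number reached by 0.575% of all windows. Between them lay Pdgfra with 5 CpG, Acot7 and Dapp1 with 6 each, Cxcl12 with 20, Oat with 22 and Igfbp4 with 27. For Acot7 and Mylk, the table held only a start 7474 and 39740 bases inside the GENCODE gene, so their outermost promoters were not examined.

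The letters AAGTTT, the known core of the sites that Myt zinc fingers bind, were searched on both strands. They occurred in the windows of 2 members, Dapp1 and Pdgfra, and in 14.4% of all windows. The longer form AAAGTTT, which contains the shorter one, occurred in Pdgfra alone among the members and in 4.74% of all windows. Such a match describes the letters only and is neither a bound site nor a cause of a level. These promoters are printed because they carry the motif and because they belong to the highest and the lowest member by length-scaled level. The 250 bases before each start are given 5′ to 3′ on the strand of the gene, with the motif in capitals, at chr3:137981550-137981799 (minus strand) for Dapp1 and chr5:75152001-75152250 (plus strand) for Pdgfra. In Dapp1 the motif reads AAGTTT on the strand of the gene and begins 17 bases before the start. In Pdgfra it reads AAACTTT, the reverse complement, and begins 49 bases before the start.
Dapp1: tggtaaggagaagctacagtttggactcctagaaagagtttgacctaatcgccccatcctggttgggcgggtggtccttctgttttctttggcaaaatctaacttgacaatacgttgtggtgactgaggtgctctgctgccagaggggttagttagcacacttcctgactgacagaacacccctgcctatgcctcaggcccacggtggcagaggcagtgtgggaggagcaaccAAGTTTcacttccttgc
Pdgfra: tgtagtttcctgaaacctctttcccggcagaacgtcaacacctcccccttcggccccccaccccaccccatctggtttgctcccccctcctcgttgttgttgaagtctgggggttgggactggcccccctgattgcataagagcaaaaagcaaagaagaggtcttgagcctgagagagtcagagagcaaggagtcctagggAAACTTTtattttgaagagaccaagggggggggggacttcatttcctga

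Both libraries carried markers of beta cells at high levels, and the marker lists of other cell types had lower sums. The totals were 50121771 counted reads in library 1 and 39003197 in library 2, so that 3 reads, the limit that a count of 0 allows, stood at 0.0599 and 0.0769 CPM, the count scaled to a common library total. All 10 beta-cell markers on the list were detected, that is, reached 1 CPM in each library, with a median of 809 TPM in library 1 and 824 TPM in library 2, where TPM also scales by gene length. The beta-cell list summed to 180874 and 184961 CPM, most of it from Ins2 (103810 and 110908 CPM). Among the other islet and duct cells, delta-cell markers summed to 1660 and 1247 CPM, alpha-cell markers to 1414 and 1176 CPM, PP-cell markers to 979 and 1215 CPM and ductal markers to 721 and 1037 CPM. Most of the ductal sum came from Spp1 (659 and 967 CPM). The median of the 3 PP-cell markers, 1498 and 1432 TPM, was above that of the beta-cell markers. Sst, a delta-cell marker, stood at 5788 and 4155 TPM. Further, 12 acinar markers summed to 120 and 533 CPM, 10 endothelial markers to 37.3 and 24.7 CPM, 14 mesenchymal markers to 54.2 and 32.0 CPM and 12 immune markers to 55.4 and 45.5 CPM. Most of the mesenchymal sum came from Fn1 (36.3 and 19.5 CPM) and most of the immune sum from C1qa (39.1 and 35.3 CPM). In bulk RNA, fewer cells of a type and less RNA per cell cannot be told apart.

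Low expression was not shared by all 9 genes, and the mean TPM of the highest was 283-fold that of the lowest. Of the 9, 6 reached 1 CPM in both libraries, beside 55.3% of 21974 protein-coding genes. Their median level was 2.41 TPM, beside a median of 2.33 TPM over all protein-coding genes and 16.2 TPM over the 12349 coding genes whose mean reached 1 CPM. The order by mean TPM was Dapp1, Oat, Lmo4, Mylk, Acot7, Igfbp4, Ndrg2, Cxcl12 and Pdgfra. Neighbours in this order had separate ranges over the libraries in 6 of 8 pairs. The exceptions were Dapp1 with Oat at the top and Cxcl12 with Pdgfra at the bottom, where the order turned in library 1 to a Cxcl12 over Pdgfra ratio of 0.757.

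**Figure D1:**
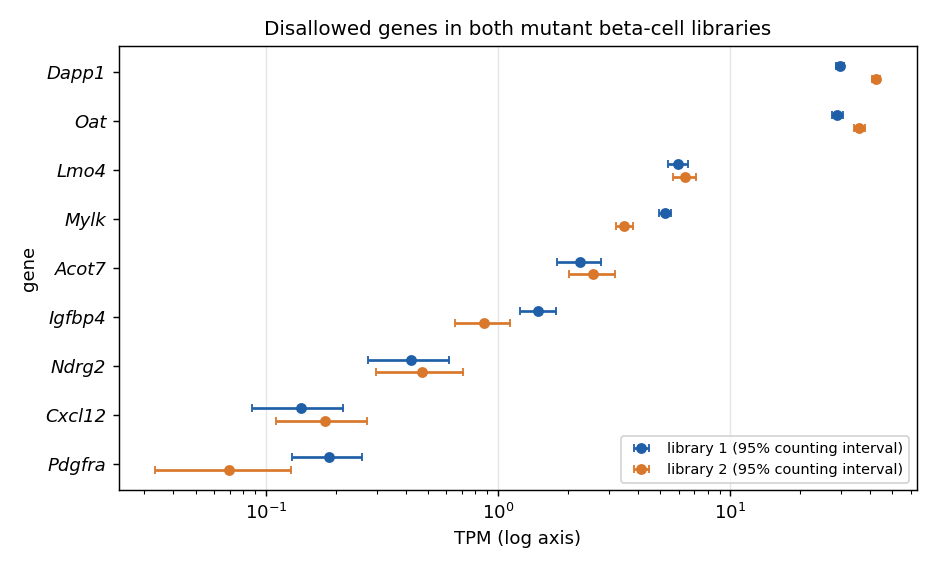
TPM (log axis) of the 9 disallowed genes in library 1 (blue) and library 2 (orange), with bars for exact 95% binomial counting intervals and genes ordered by mean TPM. Dapp1 and Oat stand between 29.0 and 42.6 TPM, apart from the other 7 genes at 6.37 TPM or less.

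The enzyme genes stood far apart. Oat, which feeds ornithine carbon into glutamate and proline, had 1245 reads in library 1 and 1218 in library 2, or 24.8 and 31.2 CPM (exact 95% intervals 23.5 to 26.3 and 29.5 to 33.0 CPM). Its length-scaled level was 29.0 and 36.0 TPM, a mean of 32.5 ± 4.97 TPM (SD, n = 2), and 84.2% of protein-coding genes were lower. This gene was thus well expressed, and its intervals in the 2 libraries did not overlap. Acot7, the acyl-CoA thioesterase, had 87 and 78 reads, at 2.25 and 2.56 TPM, a mean of 2.41 ± 0.221 TPM (SD, n = 2). Its level lay at the middle of the protein-coding genes, of which 50.2% were lower, and its exact CPM intervals, 1.39 to 2.14 and 1.58 to 2.50, overlapped.

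Among the signalling genes, Dapp1 was high and the other 3 were scarce. Dapp1, best known as an adaptor of B-lymphocyte receptor signalling, had 2238 and 2518 reads, or 44.7 CPM (exact 95% interval 42.8 to 46.5) and 64.6 CPM (62.1 to 67.1). Its length-scaled level was 29.8 and 42.6 TPM, a mean of 36.2 ± 9.05 TPM (SD, n = 2), above 85.8% of protein-coding genes. The B-lymphocyte markers Ms4a1 (0.140 and 0.0256 CPM) and Cd79a (1.12 and 0.333 CPM) were low in the same libraries, and Cd79a was lower where Dapp1 was higher.

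Igfbp4 had 120 reads in library 1 and 55 in library 2, or 2.39 CPM (exact 95% interval 1.99 to 2.86) and 1.41 CPM (1.06 to 1.84). Scaled by length it stood at 1.49 and 0.869 TPM (mean 1.18 ± 0.441, SD, n = 2), and 45.9% of protein-coding genes were lower in the mean. Its CPM intervals did not overlap, with library 1 higher. Cxcl12 had 21 reads in each library, at 0.141 and 0.179 TPM (mean 0.160 ± 0.0270, SD, n = 2), and its exact intervals of 0.259 to 0.640 and 0.333 to 0.823 CPM overlapped. Pdgfra had 34 and 10 reads, at 0.186 and 0.0696 TPM (mean 0.128 ± 0.0826, SD, n = 2), with intervals of 0.470 to 0.948 and 0.123 to 0.472 CPM that met only at their ends. Both genes lay under 1 CPM in each library but above the limit that a count of 0 allows, and 34.3% and 32.6% of protein-coding genes were lower.

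The regulators spanned an order of magnitude. Lmo4 had 383 and 322 reads, at 5.96 and 6.37 TPM, a mean of 6.17 ± 0.286 TPM (SD, n = 2). Its SD was the smallest of the 9 relative to the mean, and its exact intervals of 6.90 to 8.45 and 7.38 to 9.21 CPM overlapped. Mylk had 1076 and 565 reads, or 21.5 CPM (exact 95% interval 20.2 to 22.8) and 14.5 CPM (13.3 to 15.7), which scaled by length gave 5.25 and 3.50 TPM, a mean of 4.38 ± 1.24 TPM (SD, n = 2). Its merged exons span 11263 bases, and Mylk ranked above Lmo4 by CPM and below it by TPM. Ndrg2 had 26 and 23 reads, at 0.421 and 0.473 TPM (mean 0.447 ± 0.0368, SD, n = 2), under 1 CPM in both libraries with overlapping intervals of 0.339 to 0.760 and 0.374 to 0.885 CPM.

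**Figure D2:**
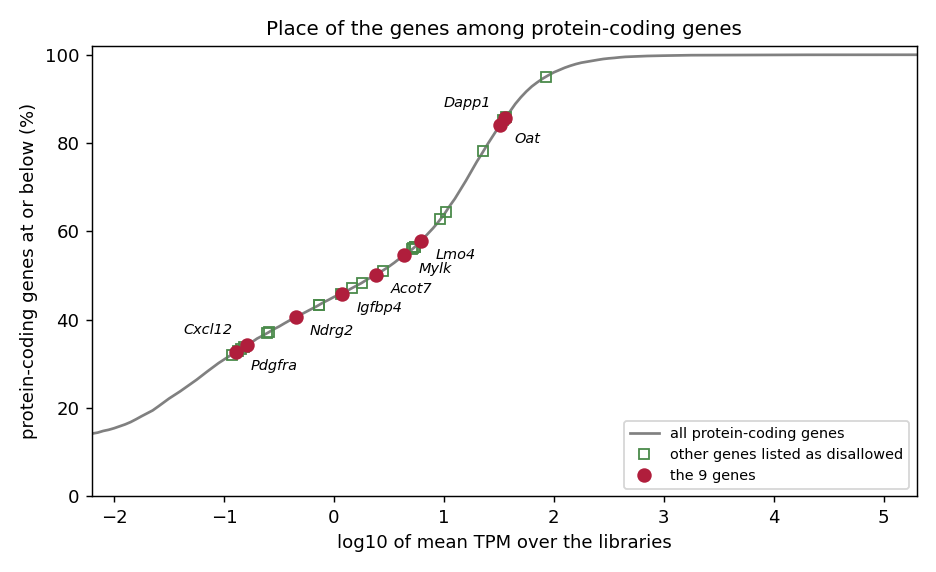
Share of protein-coding genes at or below a given mean TPM (grey curve; x axis log10 of the mean TPM over both libraries), with the 9 genes as red points and 22 other genes listed as disallowed as green squares. The red points run from 32.6% (Pdgfra) to 85.8% (Dapp1) of coding genes with lower values.

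The counts sum reads over all exons, so isoforms could not be told apart. This bears on Mylk, whose coding transcripts in GENCODE M21 run from 1620 to 7824 bases and include forms much shorter than the merged exons. It bears on other members too. The longest coding transcript of Lmo4 has 1669 bases beside 3530 merged exon bases, and that of Cxcl12 5627 beside 8176. Coding transcripts of Pdgfra run from 442 to 6834 bases and those of Igfbp4 from 489 to 3831. The TPM of these genes depends on the merged length. In GRCm38, Mylk (ENSMUSG00000022836; chromosome 16, 34745210 to 35002420, plus strand) has 38 merged exons. Of its exon bases, 6.85% are also covered by antisense genes, and 4.56% of its words of 50 bases recur in other genes. Pdgfra (ENSMUSG00000029231; chromosome 5, 75152292 to 75198215, plus strand) has 6.50% of its exon bases covered by other genes and 4.93% of its words shared. With a library kit that does not mark strand, reads from such stretches cannot be assigned, which for the 34 and 10 reads of Pdgfra is a limit on the level itself. For Igfbp4 (ENSMUSG00000017493; chromosome 11, 99041244 to 99054392, plus strand) 1.72% of words were shared and no exon base was covered. The other 6 members had no overlapped exon base and no shared word. They were Dapp1 (ENSMUSG00000028159; chromosome 3, 137931007 to 137981545, minus strand), Lmo4 (ENSMUSG00000028266; chromosome 3, 144188530 to 144205220, minus strand), Acot7 (ENSMUSG00000028937; chromosome 4, 152178134 to 152271855, plus strand), Cxcl12 (ENSMUSG00000061353; chromosome 6, 117168535 to 117181367, plus strand), Oat (ENSMUSG00000030934; chromosome 7, 132557478 to 132576398, minus strand) and Ndrg2 (ENSMUSG00000004558; chromosome 14, 51905271 to 51914158, minus strand).

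Between the libraries, 1 of the 9 genes differed by both criteria, an adjusted p under 0.05 in an exact two-sided binomial test of the reads and a ratio of 2-fold or more, beside 4.31% of the 20681 genes tested. That gene was Pdgfra, lower in library 2 with a ratio of 0.391 (95% interval 0.167 to 0.782; exact binomial test, adjusted p = 0.0204). Calls were made towards lower values in library 2 for 2.4% of all tested genes and towards higher values for 1.91%. With 44 reads in all, Pdgfra is thinly measured. The call was lost when genes with few reads were kept in the adjustment (exact binomial test, adjusted p = 0.0546).

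By adjusted p alone, 5 of the 9 passed, beside 32.4% of all tested genes. Dapp1 and Oat were higher in library 2, a direction and threshold met by 13.4% of tested genes, and Mylk, Igfbp4 and Pdgfra were lower, as were 19.0% of them. Dapp1 had a ratio of library 2 over library 1 of 1.45 (95% interval 1.37 to 1.53; exact binomial test, adjusted p = 2.67e-35). Among the 3822 genes with at least as many reads, 2.62% had a ratio as far from 1. For Oat the ratio was 1.26 (1.16 to 1.36; exact binomial test, adjusted p = 1.41e-07), and 9.20% of 6209 genes with as many reads were as far apart. These shares come from gene sets of different size, since fewer genes have as many reads as Dapp1, and they are not compared.

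Mylk had a ratio of 0.675 (0.608 to 0.748; exact binomial test, adjusted p = 2.56e-13), as far from 1 as 2.90% of 7589 genes with as many reads. Igfbp4 had a ratio of 0.592 (0.420 to 0.817; exact binomial test, adjusted p = 0.00449), as far as 3.67% of 12555 such genes. Most of those genes have more reads, and among genes with a like number of reads Igfbp4, Oat and Pdgfra lay between the 5th and the 95th percentile. With the spread between the libraries as dispersion, none of the 9 passed edgeR's exact test, where 1 member had an unadjusted p under 0.05 and 210 of all tested genes were called. That dispersion was a single value over all tested genes, estimated from the same pair of libraries, so differences between the libraries are part of it. With 1 group, this test cannot separate spread between replicates from a difference between the libraries. The binomial p-values allow for read sampling only and do not cover such spread. The ratios of Lmo4 (1.08, 0.929 to 1.26), Acot7 (1.15, 0.838 to 1.58), Ndrg2 (1.14, 0.620 to 2.07) and Cxcl12 (1.29, 0.668 to 2.47) had intervals that include 1. For Ndrg2 and Cxcl12 these intervals also include 2, so the reads leave room for a 2-fold difference.

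**Figure D3:**
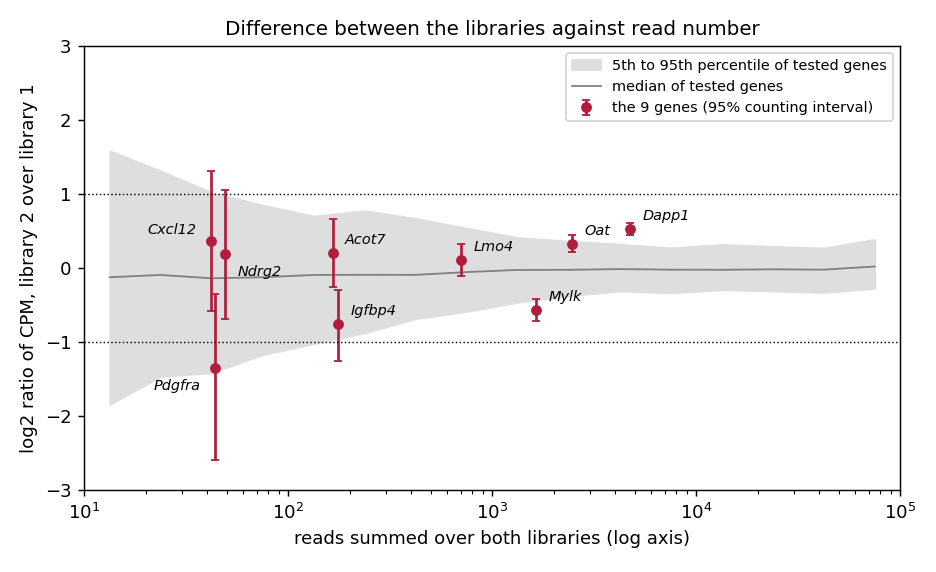
Log2 ratio of CPM in library 2 over library 1 against the reads summed over both libraries (log axis), with exact 95% binomial counting intervals for the 9 genes (red); the grey band holds the 5th to 95th percentile of tested genes with a like number of reads, and dotted lines mark 2-fold. Dapp1 lies above the band, Mylk lies below it, and Pdgfra, at a log2 ratio of −1.35, is the only member past 2-fold.

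Markers of other cells were compared between the libraries as well. Of the 14 mesenchymal markers, all of them tested, 3 passed by adjusted p and all 3 were lower in library 2. That number is near the 19.0% of all tested genes that were lower. The median log2 ratio over the list was −0.38, and 3 of the 14 had a ratio above 1. The defining stromal genes were low but none was at 0, with Pdgfrb at 0.539 and 0.564 CPM and Col1a2 at 3.93 and 1.46 CPM. Of the 10 endothelial markers, 6 passed, 5 of them lower in library 2, with a median of −0.70. Of the 12 immune markers, 9 were tested and 4 passed, all lower in library 2, with a median of −0.57. Of 8 alpha-cell markers 6 passed, 5 of them lower, and of 5 delta-cell markers 4 passed, 3 of them lower. Of the 3 PP-cell markers 1 passed in each direction, and of 6 glial markers 1 passed, lower in library 2. Pdgfra, Igfbp4 and Mylk, genes known from stromal or smooth muscle cells, were lower in library 2 as well. The 3 mesenchymal markers that passed were Fn1, Dcn and Col1a2. The smooth muscle genes Acta2 (22 and 16 reads, 0.439 and 0.410 CPM) and Myh11 (33 and 27 reads, 0.658 and 0.692 CPM) did not pass. Counts this small may miss a difference. Acinar markers moved the opposite way, at a median log2 ratio of 2.23. Of the 11 tested, 11 were called higher in library 2, beside 1.91% of all tested genes. All 6 ductal markers had a ratio above 1, and 4 of them passed by adjusted p, beside 13.4% of all tested genes that passed as higher in library 2. All 18 genes of a list of transcripts induced by interferon gamma, a list added after values were seen, were also higher there, with a median of 1.37. The part of these cells and responses in the differences of the members was not tested.

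Among their own gene families, some members were minor forms and others the main one. Counts of list genes that passed by adjusted p, given below, stand beside 32.4% of all tested genes (13.4% higher and 19.0% lower in library 2). No list was tested against that share. Ndrg2 was the lowest of the 4 Ndrg genes, at 0.421 and 0.473 TPM. Ndrg3 stood at 40.9 and 39.8 TPM, Ndrg1 at 29.9 and 33.3 TPM and Ndrg4 at 28.3 and 30.2 TPM, so that each exceeded Ndrg2 by at least 64.0-fold in each library. The ranges of Ndrg2 and of its relatives did not overlap.

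Igfbp4 was the fourth of 7 Igfbp genes by mean TPM. Igfbp7 (110 and 126 TPM) and Igfbp5 (110 and 75.1 TPM) led the family, at 73.5-fold or more above Igfbp4 in each library. Igfbp3, at 1.07 and 1.36 TPM, overlapped the range of Igfbp4, and Igfbp1 had no read in either library, which allows up to 0.0599 and 0.0769 CPM. Of the wider list of 15 genes of the insulin-like growth factor system, 9 were detected and 8 of 13 tested passed by adjusted p, 4 in each direction. Pappa, the protease known to cleave Igfbp4, stood at 0.628 and 0.462 TPM, and its relative Pappa2, at 32.0 and 11.4 TPM, was lower in library 2 by a log2 ratio of −1.48. Stc1, an inhibitor of these proteases, had 40 and 15 reads and was also called lower (log2 ratio −1.02). The receptors Igf2r (61.4 and 61.9 TPM) and Igf1r (20.7 and 28.3 TPM) were well expressed, while the ligand Igf1 had 14 and 13 reads.

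Acot7 was the eighth of 12 Acot genes. Acot13, the highest, had 51.0 and 67.5 TPM, 22.6-fold and 26.3-fold above Acot7. Acot3, the lowest, had 3 and 4 reads, and several Acot genes are near-identical neighbours whose reads may be split by the counting. Of the 11 relatives, 8 were detected, and 6 of 10 tested passed by adjusted p, 1 of them higher in library 2.

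Lmo4 led its family of 4 LIM-only genes by mean TPM. Lmo1, at 2.51 and 6.07 TPM, overlapped the range of Lmo4 and was called higher in library 2 (log2 ratio 1.28). Lmo2 (1.497 and 1.483 TPM) and Lmo3 (0.257 and 0.340 TPM) lay under it in both libraries. The LIM-binding partner Ldb1, through which Lmo4 is known to join DNA-bound complexes, stood at 131 and 93.4 TPM, and the LIM-homeodomain factor Isl1 at 91.4 and 83.9 TPM. Ldb1 led and Lmo3 closed the list of 13 LIM partners, of which 10 were detected and 8 passed by adjusted p, 3 of them higher in library 2.

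Mylk was the main myosin light chain kinase. Mylk2, Mylk3 and Mylk4 had between 1 and 6 reads in either library, against 1076 and 565 for Mylk. Its substrates differed in level, with Myl12a at 25.8 and 24.2 TPM, Myl12b at 2.60 and 2.44 TPM and the smooth muscle form Myl9 at 0.568 and 0.421 TPM. The highest gene of this list of 16 was Calm2, a calmodulin gene, at 413 and 341 TPM, and the lowest was Mylk4. Of the list, 12 were detected and 6 of 13 tested passed by adjusted p, 2 of them higher in library 2. Calmodulin and light chain genes have close copies, so single values among them are uncertain.

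**Figure D4:**
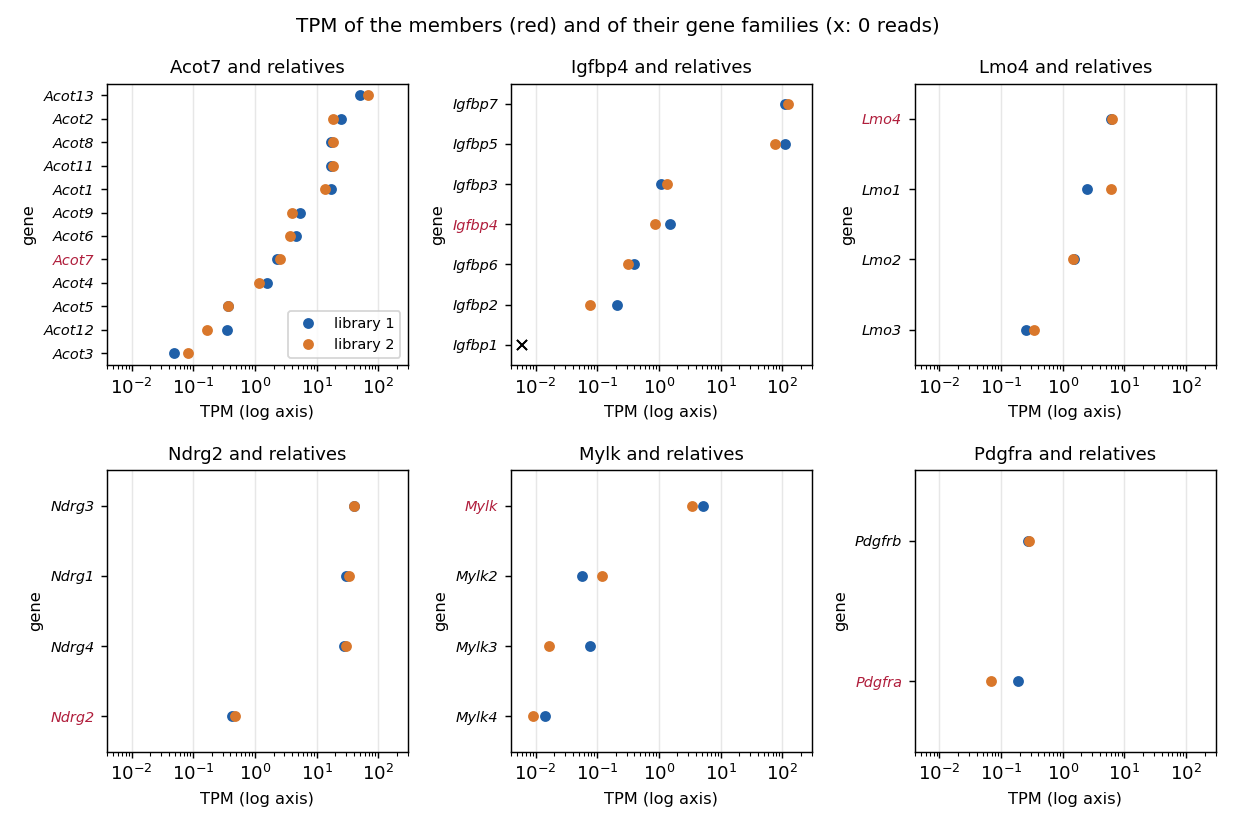
TPM (log axis) of 6 of the 9 genes (red names) and of their families in library 1 (blue) and library 2 (orange), ordered by mean TPM, with a cross for a gene with no read. Ndrg2 is the lowest of its family, Mylk and Lmo4 are the highest of theirs, and Igfbp4 lies far under Igfbp7 and Igfbp5.

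Ligand and receptor pairs around the signalling members were low on both sides or on one side only. The Cxcl12 receptors Cxcr4 (0.456 and 0.579 TPM) and Ackr3 (0.312 and 0.0834 TPM) were both under 1 TPM, like the chemokine. By TPM, Cxcr4 exceeded Cxcl12 in both libraries, while Ackr3 was higher than Cxcl12 in library 1 and lower in library 2. By reads, both receptors lay under Cxcl12 in each library, with 15 and 15 for Cxcr4 against 21 and 21. Ackr3 had 19 and 4 reads and was called lower in library 2 (log2 ratio −1.75). Dpp4, a protease known to inactivate Cxcl12, was far higher, at 35.4 and 27.4 TPM. In this list of 6 the signalling subunit Gnai2 was the highest, at 436 and 425 TPM, 4 genes were detected and 4 passed by adjusted p.

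In the platelet-derived growth factor system, the second receptor Pdgfrb stood at 0.271 and 0.280 TPM, above Pdgfra in both libraries. By CPM, Pdgfrb lay under Pdgfra in library 1 (0.539 against 0.678) and above it in library 2 (0.564 against 0.256). The ligand gene Pdgfa, by contrast, had 23.3 and 21.3 TPM, Pdgfd 7.86 and 4.27 TPM and Pdgfb 2.91 and 2.45 TPM. Pdgfc was the lowest of the list, at 0.0972 and 0.110 TPM. Transcripts of 3 of the 4 ligand genes thus exceeded those of both receptors. Of the 5 genes, 3 were detected and 1, Pdgfd, passed by adjusted p (exact binomial test, adjusted p = 1.25e-11), lower in library 2 by a ratio under 2-fold.

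Around Dapp1, 14 of 17 genes of phosphoinositide signalling were detected, led by the lipid-binding relative Plekha1 at 53.6 and 53.0 TPM. The lipid phosphatase gene Inppl1 (56.4 and 48.2 TPM) lay above Dapp1 in both libraries. Of the regulatory subunits, Pik3r2 (37.4 and 37.2 TPM) lay within the range of Dapp1 and Pik3r1 (29.0 and 26.9 TPM) below it. The kinases that act with Dapp1 in B cells were lower, with Lyn at 3.93 and 4.75 TPM, Syk at 0.264 and 0.224 TPM and Btk, the lowest of the list, at 3 reads in each library. Of the 16 genes tested, 7 passed by adjusted p, 2 of them higher in library 2, and none was called at 2-fold.

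Around Oat, 12 of 13 genes of ornithine, glutamate and proline metabolism were detected. Glutamine synthetase (Glul) was the highest at 205 and 155 TPM. Aldh18a1 (94.2 and 95.8 TPM), which makes the same semialdehyde from glutamate, and the proline-forming Pycr1 (56.6 and 53.0 TPM) exceeded Oat. The arginase Arg1, which supplies ornithine, stood at 31.7 and 13.9 TPM and was called lower in library 2 (log2 ratio −1.16). Otc, the liver enzyme that competes for ornithine, had 1 read in library 1 and 0 in library 2. Of 12 genes tested, 6 passed by adjusted p, 2 of them higher in library 2.

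The other genes listed as disallowed gave a like picture in level. Of 22, 16 were detected, beside 6 of the 9 members, and their median level was 2.28 TPM beside 2.41 TPM. The highest was Wls, a carrier of Wnt proteins, at 84.4 and 85.5 TPM, and the lowest was the transcription factor Maf at 0.133 and 0.102 TPM. Of the 22, 7 passed by adjusted p, beside 32.4% of all tested genes. All 7 were lower in library 2, as were 19.0% of all tested genes, whereas the members passed in both directions. None of the 22 was called at 2-fold, beside 4.31% of all tested genes. Lactate dehydrogenase A (Ldha) and the transporter Slc16a1, which belong to pyruvate metabolism, stood at 1.47 and 0.152 TPM in the mean. By TPM, Ndrg2, Cxcl12, Pdgfra and Igfbp4 of the 9 members lay under Ldha in both libraries. By CPM, Igfbp4 was above Ldha in library 1 (2.39 against 1.96) and under it in library 2 (1.41 against 1.59).

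By likeness of level, measured as the distance in log2(TPM + 1) over the 2 libraries among 21973 other protein-coding genes, Nolc1 and Pold2 were among the nearest to Dapp1, at distances of 0.0601 and 0.0818. Ppp1r42, Sec31b and Gm26558 were nearest to Acot7, the middle member. Ncf4, Adcyap1r1 and Tacr3 were nearest to Pdgfra. Over only 2 libraries this likeness says no more than that the levels are close.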

How the data were processed

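The authors deposited 1 table per library with a raw read count, a TPM value and a CPM value for each gene, per the file headers. Tools named in the submitters' processing notes are featureCounts 2.0.2, STAR 2.7.8a and cutadapt 2.10, with GRCm38.p6 as build. Their parameters, strand setting and rule for multiply matching reads were not given in the sources used here. Deposited CPM equals the count over the library total, and the deposited TPM fits merged GENCODE M21 exons, within 1% for 98.3% of 16225 genes. Totals were 50121771 and 39003197 reads.

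The members and the gene lists were chosen with earlier results of these data known. The interferon list was added later. All 9 members are named; of each other list, the highest and the lowest gene by mean TPM and each called gene were to be named, with others added for their role in the pathway after their values were seen. The interferon list is given by counts. Cell-type markers are given by counts, medians and sums, with single markers also named that were not chosen by that rule. The 3 nearest genes are named for the highest, middle and lowest member, except 1 that is not reported here. Of the wider lists, 1 symbol (Pycr3) had no match.

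Genes with 10 or more reads summed (20681) entered an exact binomial test (two-sided) of the split of their reads given the library totals, with Benjamini-Hochberg adjustment, and called at an adjusted p under 0.05 and a 2-fold ratio with 0.5 read added. With 1 group, no quasi-likelihood test in edgeR was possible. The test was checked on simulated counts with known changes and no spread between libraries beyond read sampling. That check does not cover a wider spread between libraries, nor genes with few reads such as Pdgfra. Intervals are exact Clopper-Pearson at 95% and cover counting error only, since PCR reads lacking molecular identifiers do not each stand for a molecule. Detection means 1 CPM in both libraries. Alternatives used edgeR 4.0.16 (TMM totals, exact test with a common dispersion), DESeq2 1.42.0 size factors, other thresholds and single libraries. Analyses ran in Python 3.11.15 with scipy 1.17.1. Promoters came from RefSeq (GRCm38.p6).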

Additional observations from a re-analysis of the deposited data

How the results depend on the processing

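The number of members that differed between the libraries depended on the settings. It was 1 (Pdgfra) with library totals and likewise with TMM totals, DESeq2 size factors and totals without the 10 highest genes. It became 0 with no filter on low counts, where 5 members kept an unadjusted p under 0.05, because more genes entered the adjustment. The edgeR exact test with the common dispersion also gave 0, with 1 member at an unadjusted p under 0.05. Its dispersion was a single value over all tested genes from the same libraries, so differences between the libraries are part of it. The number of members rose to 2 at a 1.5-fold threshold (Igfbp4 and Pdgfra) and to 5 with no fold threshold. Over all tested genes the calls numbered 892, and became 210 with the edgeR exact test, 1664 at 1.5-fold and 6699 with no fold threshold. The count of members detected stayed at 6 with each library alone. In both libraries, this count became 7 at 0.5 CPM, 5 at 1 TPM and 4 at 5 CPM. The count of the other disallowed genes detected went from 16 to 10 at 5 CPM, a setting chosen for them after seeing the data. The median level of log2(TPM + 1), 1.77 over the members, became 1.33 with a pseudocount of 0.1 and 1.54 without length scaling, both changes of scale, and ran from 1.70 to 1.83 with single libraries. By CPM, 5 of the 9 members kept their place in the order. No log2 ratio of a member changed sign under the 4 alternatives run for it. No test between the libraries can be made with 1 library left out, and no paired analysis was possible because there is 1 group. Depth limits Cxcl12, Pdgfra and Ndrg2, which rest on 10 to 34 reads in a library.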
